A study of Homo sapiens with 12 samples.

Results

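The cell division genes described here are 48 protein-coding genes of mitosis, the kinetochore and the spindle, taken by symbol from a list of mitotic kinases, checkpoint, kinetochore and motor genes, out of 67049 gene IDs counted per library. Each symbol matched 1 ID and all 48 genes passed the filter on low counts, which left 20394 genes tested. The study sequenced RNA from cytoplasm and nuclei of HEK293T (an established cell line that goes back to human embryonic kidney), collected 48 h after pIRES2 plasmids carrying SF3B1 had been transfected transiently. The SF3B1 protein belongs to the U2 snRNP, which recognises the branch point during splicing, and the series title names mRNA export and the interaction of SF3B1 with THOC5. The 4 groups, with 3 libraries each, were K700E cytoplasm, WT cytoplasm, K700E nucleus and WT nucleus, where K700E is a recurrent cancer-associated substitution. All 4 groups carry a plasmid in addition to the endogenous SF3B1 genes, gene counts do not part their mRNAs, and no untransfected or empty-plasmid sample was used here. Separate cultures are not stated for the 3 libraries within a group, so the p-values reflect only how far these libraries spread, which may be technical.

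Mitosis is driven by CDK1 with its cyclins and by the Polo-like and Aurora kinases, which reorganise the cytoskeleton into a spindle and condense the chromosomes. Kinetochores, built on centromeric chromatin marked by CENPA, attach chromosomes to microtubules through the NDC80 complex, and the spindle assembly checkpoint delays anaphase until every chromosome is attached. Kinesin motors separate the poles, move the chromosomes and organise the midzone where the cell divides, and many of these genes are transcribed together late in the cell cycle.

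The shared transcription of such genes is known to run through the cell cycle genes homology region, here searched by its core letters, and through CCAAT boxes. Promoters, the 250 bases before to 50 bases after the start in RefSeq on GRCh38.p14, were matched for 40 of the 48 genes. TTTGAA, searched on both strands, was present in 28 of these 40, or 70.0%, against 15.4% of all 27305 promoters, and CCAAT, searched the same way, in 34, or 85.0%, against 35.7%. The 2 motifs can share an end base and were counted separately. Stretches of 60 bases upstream of the start are shown for 4 genes, namely CDC20 (higher in the cytoplasm with both constructs), ESPL1 (lower with WT), KIF11 and TOP2A (not called with either), with the match on either strand in capitals. They lie at chr1:43358889-43358948 (CDC20, + strand), chr12:53268239-53268298 (ESPL1, + strand), chr10:92593070-92593129 (KIF11, + strand) and chr17:40418015-40418074 (TOP2A, - strand).
CDC20: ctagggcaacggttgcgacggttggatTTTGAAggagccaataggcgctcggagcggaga
ESPL1: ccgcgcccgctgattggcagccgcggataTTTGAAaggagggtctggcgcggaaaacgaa
KIF11: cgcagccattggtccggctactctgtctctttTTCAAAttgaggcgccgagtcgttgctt
TOP2A: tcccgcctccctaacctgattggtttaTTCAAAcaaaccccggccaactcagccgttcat
The capitals begin 65, 31, 28 and 151 bases before the start of CDC20, ESPL1, KIF11 and TOP2A. The match is a description of the letters and was not tied to any measurement in these libraries.

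The mRNAs themselves differ widely. By the annotated transcript with the longest coding sequence (GENCODE 29, GRCh38), mRNA length ran from 528 bases for CENPW to 10887 for ASPM, and GC content from 32.87% for CENPK to 61.45% for SPC24. Windows of 90 coding bases from the middle of the coding sequence are shown for 2 GC-rich and 2 AT-rich members, because these 4 are among the members whose nuclear level differed most between K700E and WT (given further on). G and C are in capitals.
CDC20: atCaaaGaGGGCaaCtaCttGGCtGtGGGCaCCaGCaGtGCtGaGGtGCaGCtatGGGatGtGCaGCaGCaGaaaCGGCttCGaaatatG
ESPL1: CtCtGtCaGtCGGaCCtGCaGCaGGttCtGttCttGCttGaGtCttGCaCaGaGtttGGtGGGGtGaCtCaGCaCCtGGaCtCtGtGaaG
ECT2: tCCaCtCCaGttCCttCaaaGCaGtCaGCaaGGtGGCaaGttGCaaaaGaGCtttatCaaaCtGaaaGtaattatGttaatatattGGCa
KIF18A: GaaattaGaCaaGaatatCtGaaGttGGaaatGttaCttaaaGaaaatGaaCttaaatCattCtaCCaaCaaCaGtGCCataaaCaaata
The windows hold 53.3% G and C for CDC20 (coding bases 703 to 792), 54.4% for ESPL1 (3136 to 3225), 37.8% for ECT2 (1327 to 1416) and 27.8% for KIF18A (1303 to 1392).

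Totals ran from 13422598 to 18116929 counts in cytoplasmic libraries and from 9086743 to 11200562 in nuclear ones, and the 48 genes held 0.699% to 1.10% of them. Levels are CPM, counts scaled to library size with TMM factors, so a cytoplasm-to-nucleus ratio compares shares of each fraction's RNA and not amounts per cell. SF3B1 mRNA stood at 6900 to 8539 CPM in K700E cytoplasm, 8186 to 10050 in WT cytoplasm, 1021 to 1913 in K700E nuclei and 1068 to 2473 in WT nuclei. MALAT1, a nuclear RNA, had 32.0 to 83.7 CPM in the 6 cytoplasmic libraries and 1666 to 8189 in the 6 nuclear ones, and the 13 mitochondrially encoded mRNAs summed to 4462 to 18740 against 905 to 1241 CPM. Of the marker lists, 6 of 7 HEK293 genes had a median above 1 CPM, as did 3 of 4 fibroblast, 2 of 5 blood, 1 of 2 liver and 0 of 3 endothelial genes, with COL1A1 highest among the other cell types at a median of 27.1 CPM and CD3E at 0 in all 12 libraries. Library 2 stood apart in both nuclear groups, since its values fell with GC content in K700E (Spearman rho -0.33 across protein-coding genes) and rose with it in WT (0.44), against -0.03 to 0.04 in the other 4 nuclear libraries. Calls and differences that changed without both of these libraries are given below with both values. Cytoplasmic library 3 also rose with GC content in both constructs, at 0.243 with K700E and 0.153 with WT. The other cytoplasmic libraries had -0.213 to -0.068.

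The first question is how the RNA of these genes was distributed between cytoplasm and nucleus. With K700E, 16 of the 48 were higher in the cytoplasm, 14 were lower and 18 were not called, and with WT 21 were higher, 12 lower and 15 not called (edgeR quasi-likelihood F test, Benjamini-Hochberg adjusted p under 0.05 over 20394 genes). Over all genes tested, 28.1% were higher and 37.9% lower with K700E, and 27.1% and 40.0% with WT. Among the 13901 protein-coding genes, as all 48 are, the shares were 36.5% higher and 27.4% lower with K700E, and 35.4% and 29.5% with WT. The genes therefore split in both directions about as protein-coding genes did, with a median log2 fold change of 0.22 with K700E and 0.37 with WT, beside 0.19 and 0.13 for protein-coding genes. Groups that did not overlap were found for 32 of the 48 with K700E (20 higher, 12 lower), or 66.7% beside 70.7% of all genes, and for 34 with WT (23 higher, 11 lower), or 70.8% beside 70.1%.

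The lists of both constructs shared most of their genes. Called higher in the cytoplasm with both constructs were 15 genes (CCNB1, CCNB2, CCNA2, PLK1, AURKA, BIRC5, CDCA8, MAD2L1, CDC20, PTTG1, CENPH, CENPN, CENPW, SPC24 and TPX2). Another 11 were lower with both (TTK, CENPC, CENPE, CENPF, NUF2, KIF14, KIF20B, KIF23, PRC1, ASPM and NUSAP1). Neither construct gave a call for 11 (CDK1, AURKB, BUB1, CENPM, NDC80, KNL1, KIF11, KIF20A, KIF2C, KIF4A and TOP2A). Removing each library's trend with GC content changed this, as given below. The remaining 11 were called with 1 construct: INCENP higher and BUB1B, CENPK and KIF18A lower with K700E, and BUB3, CENPA, CENPU, SPC25, KIF15 and ECT2 higher and ESPL1 lower with WT. None of these 11 passed the test of the difference between the constructs, which is given below.

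**Figure D1:**
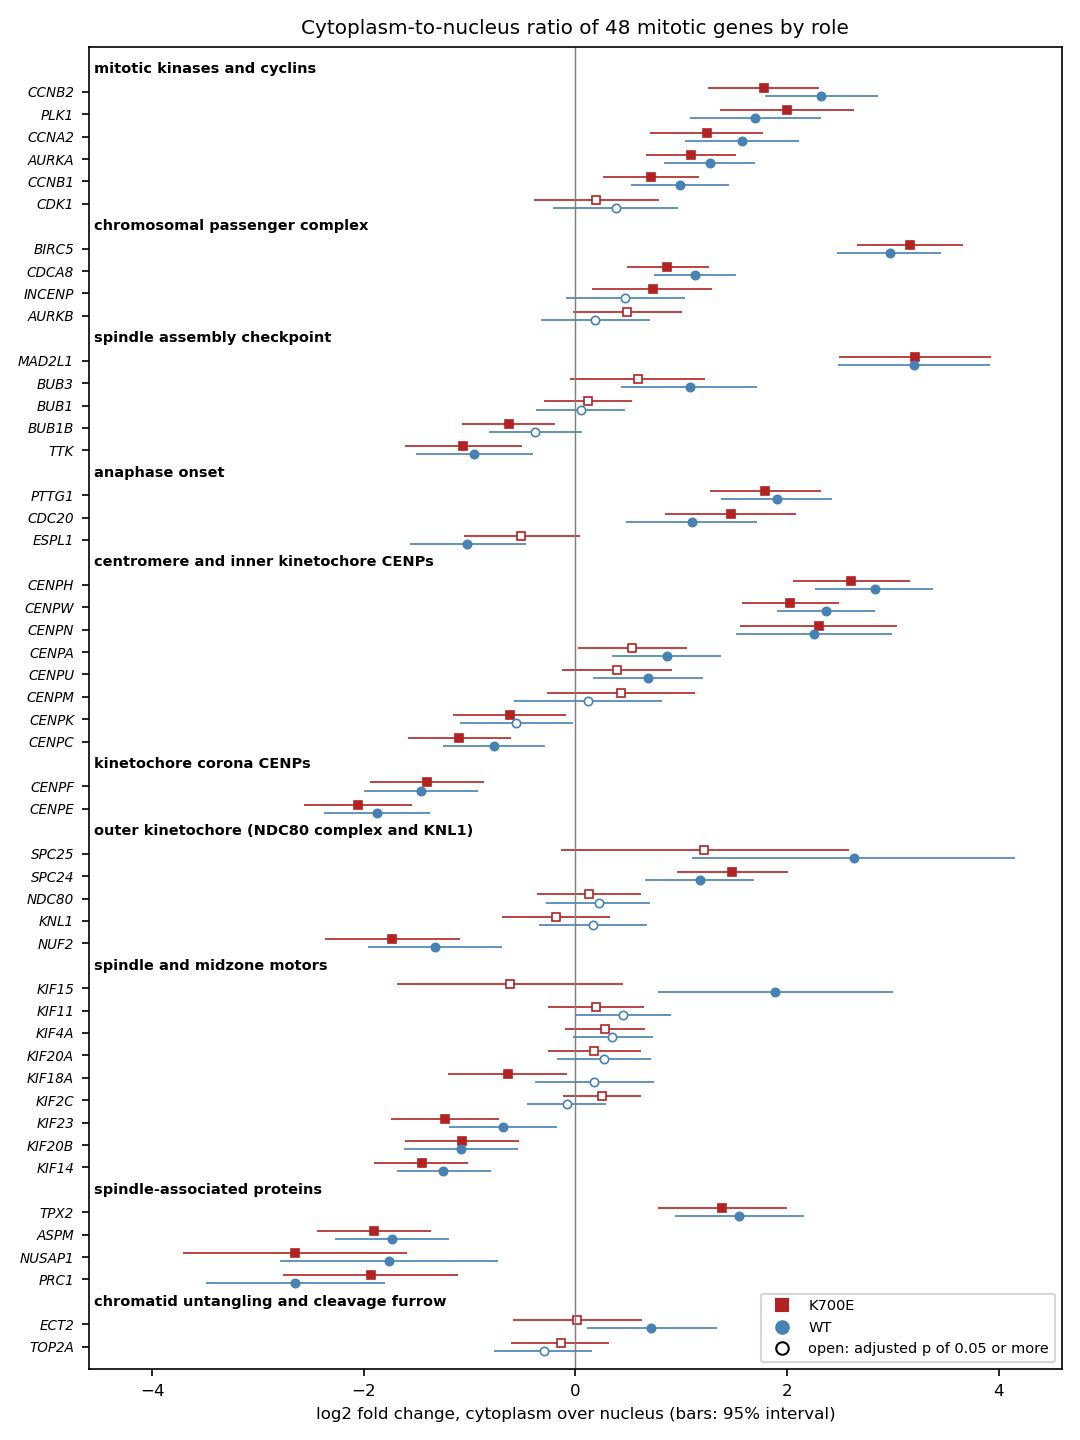
Log2 fold change of cytoplasm over nucleus for the 48 genes, grouped by role (K700E red squares, WT blue circles; bars are 95% intervals; filled symbols have an adjusted p under 0.05, and n = 3 libraries per group). Kinases and cyclins lie at 0.20 or above with both constructs, while the corona genes CENPE and CENPF lie between -2.05 and -1.40.

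Among the kinases and cyclins that start mitosis, 5 of 6 were higher in the cytoplasm with both constructs. CCNB2, a cyclin partner of CDK1, had 117, 99.4 and 96.1 CPM in K700E cytoplasm against 26.4, 40.2 and 24.7 in K700E nuclei, and 123, 124 and 110 CPM in WT cytoplasm against 32, 20.3 and 19 in WT nuclei. All cytoplasmic libraries were above all nuclear ones, and the log2 fold change was 1.78 ± 0.25 (SE; adjusted p = 1.36e-05) with K700E and 2.32 ± 0.25 (adjusted p = 1.06e-06) with WT. CCNB1, the other B-type cyclin, had 272, 265 and 265 CPM in K700E cytoplasm against 176, 193 and 119 in K700E nuclei, and 378, 353 and 318 CPM in WT cytoplasm against 212, 146 and 170 in WT nuclei. Its fractions did not overlap either, at 0.72 ± 0.22 (adjusted p = 0.00782) with K700E and 0.99 ± 0.22 (adjusted p = 0.000793) with WT. PLK1, the Polo-like kinase of mitotic entry and exit, had 195, 186 and 328 CPM in K700E cytoplasm against 75.1, 49.1 and 53.2 in K700E nuclei, and 303, 251 and 350 CPM in WT cytoplasm against 84.7, 131 and 62.7 in WT nuclei. This was a clear separation, 2.0 ± 0.30 (adjusted p = 2.44e-05) with K700E and 1.70 ± 0.29 (adjusted p = 0.000102) with WT. AURKA, the kinase of the spindle poles, had 181, 189 and 212 CPM in K700E cytoplasm against 111, 83.6 and 78 in K700E nuclei, and 226, 232 and 215 CPM in WT cytoplasm against 109, 81.4 and 88.5 in WT nuclei. It gave 1.09 ± 0.20 (adjusted p = 0.000197) and 1.27 ± 0.20 (adjusted p = 4.85e-05), again without overlap.

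CCNA2, the cyclin of S phase and early mitosis, was likewise higher, at 1.24 ± 0.25 with K700E and 1.58 ± 0.25 with WT. CDK1, the catalytic partner of all 3 cyclins, was the one gene of this role without a call. Its level was 386, 310 and 264 CPM in K700E cytoplasm against 267, 406 and 163 in K700E nuclei, and 317, 324 and 281 CPM in WT cytoplasm against 303, 197 and 211 in WT nuclei. The fractions overlapped, with nuclear K700E library 2 the highest of all 12, and the log2 fold change was 0.20 ± 0.28 (adjusted p = 0.542) with K700E and 0.38 ± 0.28 (adjusted p = 0.241) with WT. The 95% interval reached 0.79 with K700E and 0.97 with WT. The intervals of CCNB1 overlapped it (0.26 to 1.17 with K700E, 0.53 to 1.45 with WT), as did that of CCNA2 with K700E (0.71 to 1.77). Those of CCNB2, and of CCNA2 with WT, lay above it. Without nuclear library 2 of both constructs, CDK1 was called higher with K700E (0.61, adjusted p = 0.0371). With each library's trend with GC content removed, it was called higher with both (1.13 with K700E, 1.04 with WT).

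The chromosomal passenger complex, which corrects faulty attachments and later guides cytokinesis, gave 3 of 4 higher with K700E and 2 of 4 with WT. BIRC5 (survivin), its small BIR-domain subunit, had 563, 473 and 574 CPM in K700E cytoplasm against 77.5, 52.5 and 50.3 in K700E nuclei, and 654, 601 and 643 CPM in WT cytoplasm against 93.6, 85.6 and 63.2 in WT nuclei. That is 8.93-fold higher in the cytoplasm with K700E (log2 3.16 ± 0.24, adjusted p = 3.99e-08) and 7.83-fold with WT (2.97 ± 0.23, adjusted p = 6.22e-08). CDCA8 (borealin), a scaffold subunit, had 121, 120 and 123 CPM in K700E cytoplasm against 67.5, 71.1 and 59.9 in K700E nuclei, and 156, 151 and 150 CPM in WT cytoplasm against 74, 60.6 and 74.6 in WT nuclei. It was higher at 0.87 ± 0.18 (adjusted p = 0.000555) and 1.13 ± 0.18 (adjusted p = 5.42e-05). INCENP, the large scaffold, had 0.73 ± 0.27 with K700E (adjusted p = 0.0246) and 0.47 ± 0.27 with WT (adjusted p = 0.127), and AURKB, the kinase of the complex, had 0.49 ± 0.24 and 0.19 ± 0.24 without a call. The subunits of this one complex thus spanned 0.49 to 3.16 with K700E and 0.19 to 2.97 with WT.

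Checkpoint genes went in both directions. MAD2L1, the MAD2 protein that inhibits CDC20 until chromosomes are attached, had 438, 438 and 353 CPM in K700E cytoplasm against 46.9, 60.2 and 25.6 in K700E nuclei, and 361, 404 and 366 CPM in WT cytoplasm against 64.4, 26.7 and 31.6 in WT nuclei. It had the largest ratio among the 48 with either construct, 9.26-fold with K700E (log2 3.21 ± 0.34, adjusted p = 7.85e-07) and 9.21-fold with WT (3.20 ± 0.34, adjusted p = 8.19e-07). BUB3, an adaptor that brings BUB1 and BUBR1 to the kinetochore, was higher with WT (1.08 ± 0.31, adjusted p = 0.00528), beside 0.59 ± 0.30 with K700E (adjusted p = 0.0947). TTK (MPS1), the kinase that starts the checkpoint signal, was lower in the cytoplasm, at -1.06 ± 0.26 (adjusted p = 0.00216) with K700E and -0.96 ± 0.26 (adjusted p = 0.00423) with WT. BUB1B (BUBR1) was lower with K700E (-0.63 ± 0.21, adjusted p = 0.0142) and had -0.38 ± 0.21 with WT (adjusted p = 0.118). BUB1, the kinase that recruits shugoshin, had 0.12 ± 0.20 and 0.05 ± 0.20 without a call.

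Of the anaphase genes, CDC20, which activates the anaphase-promoting complex, had 187, 181 and 291 CPM in K700E cytoplasm against 112, 67.5 and 57.9 in K700E nuclei, and 290, 227 and 324 CPM in WT cytoplasm against 118, 179 and 95.3 in WT nuclei. It was higher with both constructs, at 1.47 ± 0.30 (adjusted p = 0.000413) and 1.10 ± 0.29 (adjusted p = 0.00342). PTTG1 (securin), the inhibitor that CDC20 helps to destroy, was higher too, at 1.79 ± 0.25 with K700E and 1.91 ± 0.25 with WT. ESPL1 (separase), the cohesin-cleaving protease that securin holds back, had 75.1, 86.8 and 127 CPM in K700E cytoplasm against 183, 93.6 and 134 in K700E nuclei, and 104, 92.2 and 119 CPM in WT cytoplasm against 217, 244 and 177 in WT nuclei. It was lower in the cytoplasm with WT (-1.02 ± 0.26, adjusted p = 0.0026), while with K700E the fractions overlapped (-0.51 ± 0.26, adjusted p = 0.0912). Securin and separase therefore had ratios of opposite sign with WT, with 95% intervals of 1.38 to 2.43 and -1.56 to -0.47. With K700E the intervals, 1.27 to 2.32 and -1.05 to 0.04, did not overlap, but that of separase included 0.

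**Figure D2:**
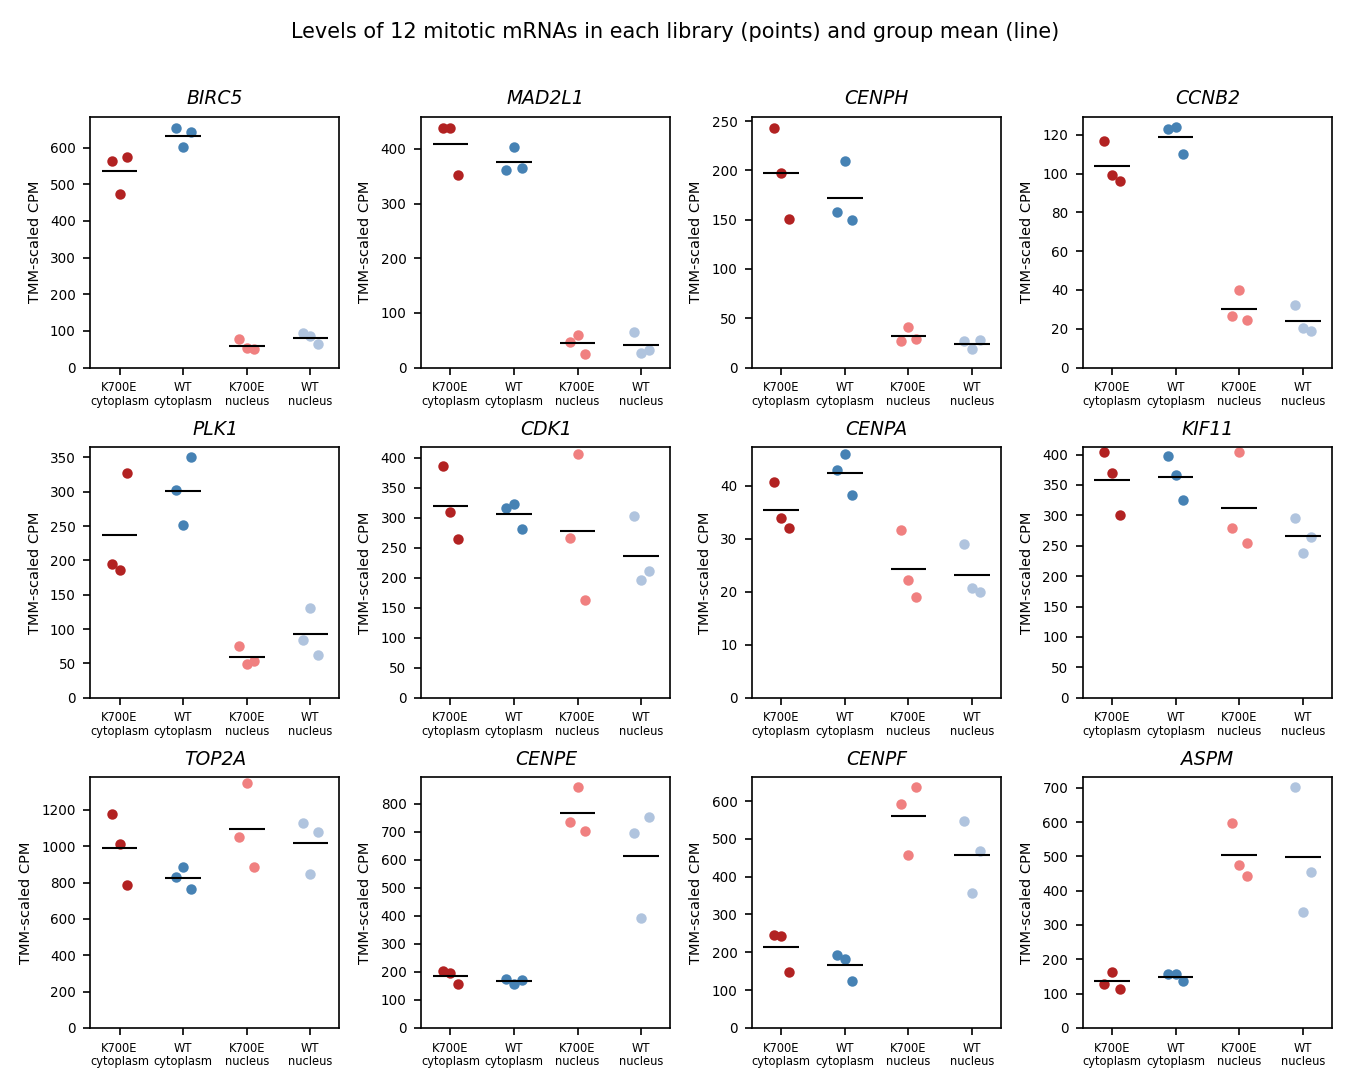
TMM-scaled CPM (vertical axis, from 0) of 12 genes in every library (points), with the mean of each group of 3 (line), in K700E cytoplasm, WT cytoplasm, K700E nucleus and WT nucleus. The cytoplasmic libraries of BIRC5, MAD2L1, CENPH, CCNB2 and PLK1 all lie above the nuclear ones, those of CENPE, CENPF and ASPM all lie below, and those of CDK1 and TOP2A overlap.

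The 8 CENP genes of centromeric chromatin and the inner kinetochore gave 3 higher and 2 lower with K700E, and 5 higher and 1 lower with WT. CENPH, a subunit of the CENP-H/I/K/M assembly, had 243, 197 and 151 CPM in K700E cytoplasm against 26.4, 41.1 and 29.2 in K700E nuclei, and 158, 209 and 150 CPM in WT cytoplasm against 26.6, 18.5 and 27.8 in WT nuclei. All cytoplasmic libraries were above all nuclear ones, at 2.61 ± 0.26 (adjusted p = 4.42e-07) and 2.83 ± 0.26 (adjusted p = 2.39e-07). CENPK, which binds CENPH directly, had 64.5 to 113 CPM in K700E cytoplasm against 107 to 175 in K700E nuclei, and 63.4 to 78.0 in WT cytoplasm against 77.4 to 120 in WT nuclei. It was lower with K700E (-0.62 ± 0.25, adjusted p = 0.0388) and had -0.56 ± 0.25 with WT (adjusted p = 0.0604). The intervals of these partners lay far apart, 2.06 to 3.16 for CENPH against -1.16 to -0.09 for CENPK with K700E, and 2.27 to 3.38 against -1.09 to -0.02 with WT. CENPM, the third measured subunit of that assembly, had 0.43 ± 0.33 and 0.12 ± 0.33 without a call.

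CENPW, a small histone-fold protein that pairs with CENPT and has the shortest mRNA of the motor and CENP genes, had 57.6, 52.4 and 54.8 CPM in K700E cytoplasm against 16.3, 13.5 and 10.4 in K700E nuclei, and 69, 74.1 and 66.1 CPM in WT cytoplasm against 13.7, 13.3 and 13.3 in WT nuclei. Its replicates were tight and the fractions far apart, at 2.03 ± 0.22 (adjusted p = 7.9e-07) and 2.37 ± 0.22 (adjusted p = 2.09e-07). CENPA, the histone H3 variant of centromeres, had 40.6, 33.8 and 32 CPM in K700E cytoplasm against 31.7, 22.2 and 18.9 in K700E nuclei, and 43, 45.9 and 38.2 CPM in WT cytoplasm against 28.9, 20.7 and 19.9 in WT nuclei. It was higher with WT (0.87 ± 0.24, adjusted p = 0.00498) and just missed the threshold with K700E (0.54 ± 0.24, adjusted p = 0.0579). CENPN, which reads CENPA nucleosomes, was higher at 2.30 ± 0.35 and 2.26 ± 0.35, and CENPU was higher with WT (0.69 ± 0.25, adjusted p = 0.021) beside 0.39 ± 0.25 with K700E. CENPC, the scaffold that bridges centromere and outer kinetochore and the one inner gene here with a long mRNA (6940 bases), was lower with both, at -1.10 ± 0.23 (adjusted p = 0.000573) and -0.77 ± 0.23 (adjusted p = 0.00705).

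Both corona CENP genes were lower in the cytoplasm. CENPE, a kinesin that carries chromosomes to the spindle equator, had 203, 195 and 158 CPM in K700E cytoplasm against 735, 859 and 703 in K700E nuclei, and 174, 156 and 171 CPM in WT cytoplasm against 694, 392 and 751 in WT nuclei. Nuclear levels exceeded cytoplasmic ones in every library, 4.13-fold with K700E (log2 -2.05 ± 0.24, adjusted p = 2.27e-06) and 3.66-fold with WT (-1.87 ± 0.24, adjusted p = 5.24e-06). CENPF, a large coiled-coil protein of the corona with the longest mRNA of the motor and CENP genes (10307 bases), had 247, 244 and 148 CPM in K700E cytoplasm against 592, 456 and 637 in K700E nuclei, and 193, 183 and 123 CPM in WT cytoplasm against 548, 358 and 468 in WT nuclei. Its ratio was -1.40 ± 0.26 (adjusted p = 0.000189) with K700E and -1.46 ± 0.26 (adjusted p = 0.000127) with WT, with no overlap.

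The 4 subunits of the NDC80 complex, which form one rod that grips microtubules, did not share a distribution. NUF2, the partner of NDC80 at the microtubule end, had 154, 126 and 100 CPM in K700E cytoplasm against 297, 686 and 281 in K700E nuclei, and 103, 119 and 107 CPM in WT cytoplasm against 229, 259 and 338 in WT nuclei. It was lower in the cytoplasm, at -1.73 ± 0.30 (adjusted p = 0.000129) and -1.33 ± 0.30 (adjusted p = 0.0011), and nuclear K700E library 2 was far above the other libraries. NDC80 itself had 0.13 ± 0.23 and 0.22 ± 0.23 without a call. SPC24, at the kinetochore end of the rod, was higher at 1.48 ± 0.25 (adjusted p = 7.31e-05) and 1.18 ± 0.24 (adjusted p = 0.000537). SPC25, its partner, was counted at 5 to 38 reads in K700E libraries and 1 to 29 in WT ones, or 3.24, 1.08 and 1.56 CPM in K700E cytoplasm against 1.35, 0.431 and 0.696 in K700E nuclei, and 2.31, 1.33 and 1.89 in WT cytoplasm against 0.0781, 0.262 and 0.545 in WT nuclei. Its call with WT (2.63 ± 0.72, adjusted p = 0.00434; 1.22 ± 0.65 with K700E, adjusted p = 0.104) rests on these few reads. KNL1, the scaffold that receives the checkpoint proteins, had -0.18 ± 0.24 and 0.17 ± 0.24 without a call although its mRNA is 9573 bases long.

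The 9 spindle and midzone motors gave 0 higher and 4 lower with K700E, and 1 higher and 3 lower with WT. KIF11 (Eg5), which pushes the spindle poles apart, had 404, 369 and 300 CPM in K700E cytoplasm against 279, 404 and 255 in K700E nuclei, and 397, 367 and 326 CPM in WT cytoplasm against 295, 238 and 265 in WT nuclei. The groups overlapped with K700E and not with WT, and neither ratio was called (0.20 ± 0.21, adjusted p = 0.433, and 0.45 ± 0.21, adjusted p = 0.0733). KIF14, a cytokinesis motor, and KIF20B, a midzone motor, were lower with both constructs, KIF14 at -1.45 ± 0.21 and -1.25 ± 0.21 and KIF20B at -1.07 ± 0.26 and -1.08 ± 0.26. KIF23 (MKLP1), the motor of the centralspindlin complex, had 153, 151 and 131 CPM in K700E cytoplasm against 324, 425 and 271 in K700E nuclei, and 182, 162 and 148 CPM in WT cytoplasm against 335, 175 and 278 in WT nuclei. It was lower with both, at -1.23 ± 0.24 (adjusted p = 0.000362) and -0.68 ± 0.24 (adjusted p = 0.02), with 1 WT nuclear library (175 CPM) below the highest WT cytoplasmic one (182 CPM).

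KIF18A, which dampens chromosome oscillations, had 131, 108 and 97.4 CPM in K700E cytoplasm against 130, 275 and 120 in K700E nuclei, and 134, 122 and 120 CPM in WT cytoplasm against 115, 107 and 110 in WT nuclei. It was called lower with K700E (-0.64 ± 0.27, adjusted p = 0.0414; WT 0.18 ± 0.26, adjusted p = 0.564), and the nuclear value of 275 CPM is that of K700E library 2. KIF15, a second pole-separating kinesin, was weakly counted (22 to 224 reads), with 4.78, 2.78 and 7.81 CPM in K700E cytoplasm against 9.0, 5.43 and 9.22 in K700E nuclei, and 4.08, 14.8 and 14.6 CPM in WT cytoplasm against 1.87, 5.16 and 2.0 in WT nuclei. The fractions overlapped with both constructs, at -0.62 ± 0.51 (adjusted p = 0.291) with K700E and 1.89 ± 0.53 (adjusted p = 0.00461) with WT. KIF2C (MCAK), a microtubule depolymeriser, KIF4A, a chromosome-arm and midzone motor, and KIF20A (MKLP2), which relocates the passenger complex, all lay between -0.08 and 0.35 with no call.

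Of the spindle-associated proteins, TPX2, the activator of AURKA, was the only one higher in the cytoplasm, at 1.39 ± 0.29 (adjusted p = 0.000522) and 1.55 ± 0.29 (adjusted p = 0.000203). ASPM, a pole-focusing protein, had 128, 164 and 114 CPM in K700E cytoplasm against 596, 476 and 443 in K700E nuclei, and 156, 157 and 136 CPM in WT cytoplasm against 701, 339 and 455 in WT nuclei. It was lower by a wide margin, -1.90 ± 0.26 (adjusted p = 9.74e-06) and -1.73 ± 0.26 (adjusted p = 2.24e-05). PRC1, which bundles midzone microtubules, had 2.39, 1.62 and 2.41 CPM in K700E cytoplasm against 8.92, 8.01 and 7.66 in K700E nuclei, and 1.51, 1.57 and 2.09 CPM in WT cytoplasm against 5.86, 16.5 and 10.3 in WT nuclei. NUSAP1, a microtubule stabiliser near chromatin, had 0.598, 0.695 and 0.497 CPM in K700E cytoplasm against 3.82, 3.71 and 3.83 in K700E nuclei, and 0.799, 1.33 and 0.391 CPM in WT cytoplasm against 2.89, 3.24 and 2.36 in WT nuclei. Both were lower in every cytoplasmic library (PRC1 -1.93 ± 0.39 and -2.65 ± 0.40, NUSAP1 -2.65 ± 0.50 and -1.76 ± 0.49). These 2 genes are uncertain, since 89.5% of the PRC1 and 88.8% of the NUSAP1 transcript bases are shared on the same strand with another annotated gene (AC068831.7 and AC087721.2), and only 6 to 189 reads per library were assigned to them.

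TOP2A, which untangles sister chromatids, had 1180, 1010 and 787 CPM in K700E cytoplasm against 1050, 1350 and 887 in K700E nuclei, and 829, 884 and 763 CPM in WT cytoplasm against 1130, 849 and 1080 in WT nuclei. It was abundant, with overlapping fractions at -0.14 ± 0.22 (adjusted p = 0.58) and -0.30 ± 0.22 (adjusted p = 0.232), and its ratio depended on the scaling, as given below. ECT2, the RhoA activator of the cleavage furrow, had 247, 262 and 218 CPM in K700E cytoplasm against 215, 336 and 167 in K700E nuclei, and 256, 260 and 238 CPM in WT cytoplasm against 228, 96.5 and 132 in WT nuclei. Its call with WT (0.72 ± 0.29, adjusted p = 0.036) had no counterpart with K700E (0.02 ± 0.29, adjusted p = 0.958), and again nuclear K700E library 2 was the highest of the 12.

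Calls near the threshold depended on single libraries and on scaling. With WT, KIF23 was not called without WT nucleus 1 or 3 or WT cytoplasm 2 or 3 (adjusted p 0.0629 to 0.149), ECT2 was not called without WT nucleus 2 or 3 or any 1 of the 3 WT cytoplasmic libraries (0.0513 to 0.105), and CENPU was not called without WT cytoplasm 2 (0.0551). With K700E, BUB1B was not called without K700E cytoplasm 3 (0.0605), and INCENP without K700E nucleus 2 or 3 or K700E cytoplasm 3 (0.0516 to 0.107). CENPK and KIF18A with K700E lost their calls without K700E nucleus 2 (log2 -0.37 and -0.14, adjusted p 0.226 and 0.547) and also without WT nucleus 3, any 1 WT cytoplasmic library or K700E cytoplasm 2 or 3, and CENPK without K700E nucleus 1 and KIF18A without WT nucleus 1 (adjusted p 0.0511 to 0.547 over all of these). Without nuclear library 2 of both constructs, 19 of the 48 were higher and 13 lower with K700E, and 22 and 14 with WT. The shares of all genes called in this refit are not given, so these counts are not a result about the 48 alone. With K700E, CDK1 (0.61), KIF11 (0.46), CENPU (0.77) and BUB3 (0.88) were then called higher and ESPL1 (-0.68) lower, at adjusted p of 0.00467 to 0.0383, while INCENP (0.57), CENPK (-0.35) and KIF18A (-0.12) were not called. With WT, KIF4A (0.41) was then called higher and BUB1B (-0.53) and CENPK (-0.68) lower. Scaling by library size alone ended the calls of CCNB1 and INCENP with K700E (0.32 and 0.30) and of BUB3, CDC20, CENPA, CENPU and ECT2 with WT (0.59, 0.58, 0.36, 0.17 and 0.23). It also added calls, among them ESPL1 lower with K700E (-0.94) and CENPK (-1.07) and BUB1B (-0.89) lower with WT. The DESeq2 Wald test likewise called ESPL1 lower with K700E (-0.63, adjusted p = 0.0295) and CENPK lower with WT (-0.63, adjusted p = 0.0346).

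The centre of the ratio depended on the scaling. Scaling by library size alone lowered the median of all genes by 0.41 with K700E and 0.51 with WT and gave 14 higher and 17 lower with K700E, and 16 and 17 with WT. Upper quartile factors (shifts of -0.37 and -0.38) gave 14 higher and 15 lower with K700E and 18 and 16 with WT, and TMM on protein-coding genes (-0.20 and -0.17) gave 15 and 15 and 19 and 14. Removing each library's trend with GC content raised the median of all genes by 0.33 and 0.38 and gave 31 higher and 10 lower with K700E, and 33 and 8 with WT. The median of the 48 exceeded that of protein-coding genes by 0.03 to 0.05 with K700E and by 0.23 to 0.24 with WT under TMM and the scalings that move all genes of a library alike. With the GC trend removed it exceeded it by 0.24 and 0.30. The corresponding excess over all genes was 0.52 to 0.53 and 0.76 to 0.77, and with the GC trend removed 0.71 and 0.84. The GC correction moved genes unequally. With the GC trend removed, CENPK (1.03 with K700E, 0.82 with WT), KIF20B (0.35 and 0.06), TOP2A (0.51 and 0.13), KNL1 (0.57) and KIF18A (0.30) with K700E and KIF2C (0.15) with WT changed sign. The same correction ended the calls of TTK (-0.05) and BUB1B (-0.17) with K700E and of TTK (-0.25), CENPC (-0.26) and KIF23 (-0.32) with WT. It also added calls, since the 11 genes called with neither construct above were each called higher with K700E, WT or both. Among them were CDK1 (1.13 with K700E, 1.04 with WT) and KIF11 (0.93 and 0.94).

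Long motor and CENP mRNAs were also compared with short ones. Of the 19 motor and CENP genes, 8 have an mRNA over 4000 bases (CENPC, CENPE, CENPF, KIF4A, KIF11, KIF14, KIF15 and KIF20B) and 7 have one under 2000 (CENPA, CENPH, CENPK, CENPM, CENPN, CENPU and CENPW). No motor is among the short ones, so length and gene family cannot be told apart for the motors. CENP genes are in both classes. The long CENPC, CENPE and CENPF had ratios of -2.05 to -1.10 with K700E and -1.87 to -0.77 with WT. The 7 short CENP genes had -0.62 to 2.61 with K700E and -0.56 to 2.83 with WT. Among the long, 0 were higher and 5 lower with K700E (median -1.08), and 1 was higher and 5 lower with WT (-0.93). Among the short, 3 were higher and 1 lower with K700E (0.54), and 5 were higher and 0 lower with WT (0.87). The 5 long genes called lower were CENPC, CENPE, CENPF, KIF14 and KIF20B with both constructs, and the 4 of middle length, KIF2C, KIF18A, KIF20A and KIF23, had medians of -0.23 and 0.05.

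Over all 48 genes the pattern was the same in kind. Of the 15 long ones, 6 were lower and 1 higher with K700E (median -0.51), and 7 were lower and 4 higher with WT (-0.30). Of the 16 short ones, 7 were higher and 3 lower with K700E (0.88), and 10 were higher and 2 lower with WT (0.98). The 17 of middle length had 8 higher and 5 lower (0.25) with K700E and 7 and 3 (0.27) with WT. Protein-coding genes in general showed the same order, since 47.7% of those with a short mRNA were higher with K700E and 44.6% with WT, while 32.9% of those with a long one were lower with K700E and 33.4% with WT. Their medians were 0.67 (short), 0.29 (middle) and -0.12 (long) with K700E and 0.51, 0.19 and -0.09 with WT. The members nearest the limits were NUF2 (1969 bases) and CENPU (1998) inside the short class, CCNB1 (2169) and NDC80 (2172) just above it, INCENP (3964) just under the long class and ECT2 (4158) just inside it.

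Over the 48 genes, coding length followed the ratio more closely than whole length did, and over the 19 motor and CENP genes it did not. Across the 48, which share all libraries, Spearman's rho between the log2 ratio and coding length was -0.69 with K700E and -0.64 with WT, beside -0.36 and -0.35 across 13901 protein-coding genes. For whole mRNA length rho was -0.53 and -0.45, and for the number of exons -0.70 and -0.63. For the genomic span of the gene it was -0.65 and -0.46, and for untranslated length -0.04 and 0.06. Across the 19 motor and CENP genes, rho was -0.86 with K700E and -0.72 with WT for whole length, and -0.80 and -0.66 for coding length. The 2 members with a long mRNA and a short coding sequence, MAD2L1 (5468 bases, 615 coding) and BUB3 (7828, 984 coding), had ratios of 3.21 and 0.59 with K700E and 3.20 and 1.08 with WT. At the other end ASPM, CENPF and CENPE, with 10431, 9342 and 8103 coding bases, had ratios from -2.05 to -1.40. With TMM scaling, KNL1 (7026 coding bases) and TOP2A (4593) lay near 0, but their ratios depended on the scaling. By library size alone, TOP2A was called lower (-0.54 with K700E, -0.81 with WT), as was KNL1 with K700E (-0.58). With the GC trend removed, KNL1 was called higher (0.57 with K700E, 0.71 with WT), as was TOP2A with K700E (0.51). NUF2, with 1392 coding bases, was as low as -1.73 with K700E and -1.33 with WT. Among the 48, coding length and GC content were themselves related (rho -0.37), and GC content had a rho of 0.52 with the ratio with K700E and 0.34 with WT. With the GC trend of each library removed, rho for coding length was -0.67 and -0.64, and without PRC1, NUSAP1, SPC25 and KIF15 it was -0.74 and -0.71.

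**Figure D3:**
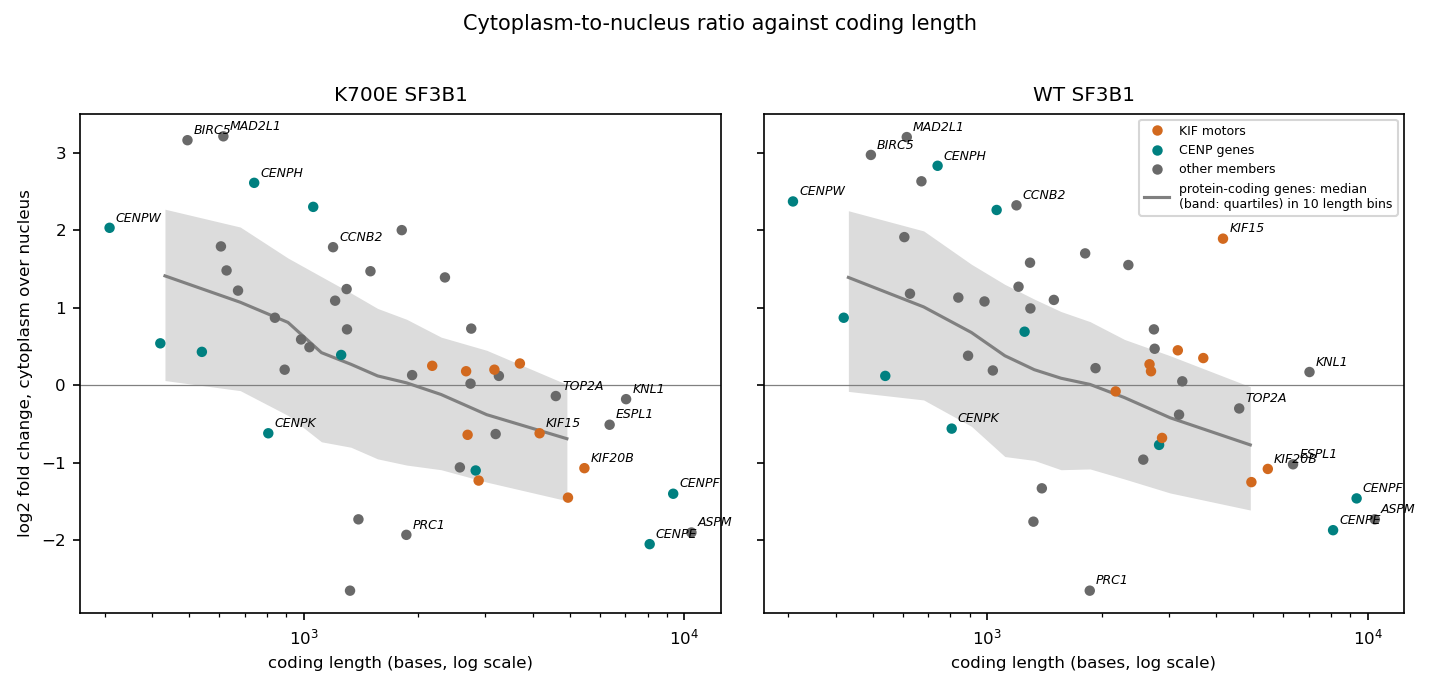
Log2 fold change of cytoplasm over nucleus (vertical axis) against coding length in bases (log axis) for the 48 genes (points, coloured by family), with K700E on the left and WT on the right. The grey line and band are the median and quartiles of protein-coding genes in 10 bins of coding length. The genes with the longest coding sequence (ASPM, CENPF and CENPE) lie between -2.05 and -1.40 at the right of each panel, and BIRC5 and MAD2L1 highest on the left.

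Summed over genes, the short class stood at 1604 to 1886 CPM in K700E cytoplasm against 943 to 1799 in K700E nuclei, and at 1731 to 1778 CPM in WT cytoplasm against 1126 to 1181 in WT nuclei. The long class stood at 3237 to 4108 CPM in K700E cytoplasm against 4433 to 5893 in K700E nuclei, and at 3365 to 3671 CPM in WT cytoplasm against 3557 to 5302 in WT nuclei. Short genes overlapped between fractions with K700E and long genes with WT, in both cases through nuclear library 2 alone (1799 CPM for short genes with K700E, 3557 for long genes with WT). Without nuclear library 2, both classes separated with both constructs. The sums over all 48 were close between fractions, 8763 ± 680 CPM in K700E cytoplasm against 8799 ± 1620 in K700E nuclei and 8942 ± 298 in WT cytoplasm against 7867 ± 1240 in WT nuclei (SD, n = 3). In bulk libraries a smaller share of mitotic cells and less of these mRNAs per cell cannot be told apart.

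**Figure D4:**
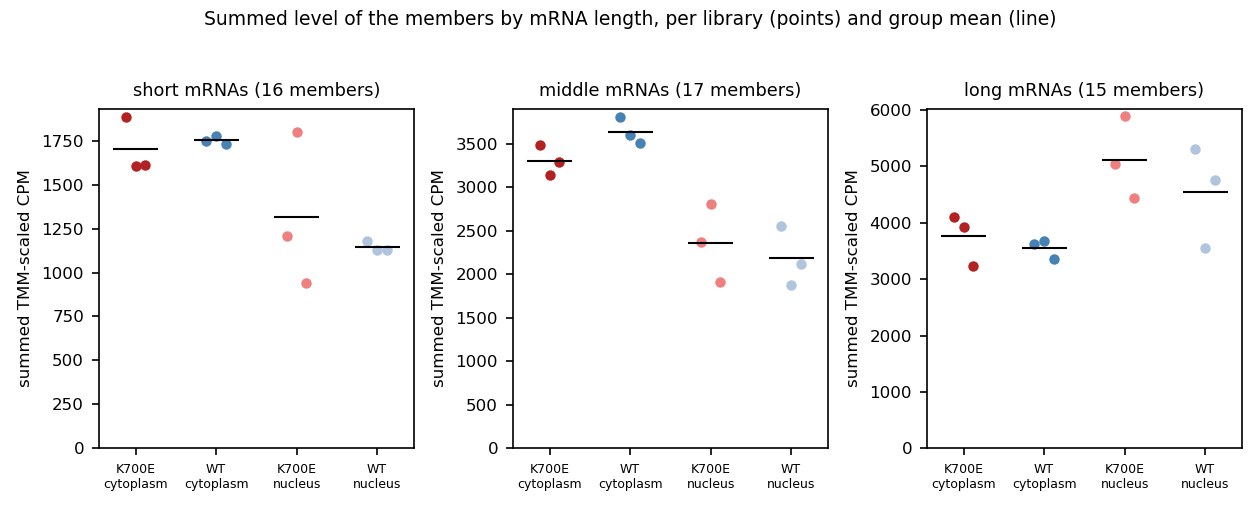
Summed TMM-scaled CPM (vertical axis, from 0) of the members with a short, middle and long mRNA in each library (points), with group means (line). Long members sum to 3237 to 4108 CPM in the 6 cytoplasmic libraries and to 3557 to 5893 in the 6 nuclear ones.

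Levels of different genes are compared only per length, as CPM per kilobase of mRNA. In the cytoplasm BIRC5 stood first, at 198 ± 20.4 with K700E and 233 ± 10.3 with WT, a lead beyond the spread only with WT, where CCNB1 (161 ± 13.9), CDK1 (158 ± 11.9) and CDC20 (158 ± 27.7) followed without differing from each other. With K700E, TOP2A (172 ± 34.2) and CDK1 (164 ± 31.6) followed within their spread. In nuclei TOP2A and NUF2 led, with NUF2 at 214 ± 116 and TOP2A at 190 ± 40.8 with K700E, and TOP2A at 177 ± 26.1 and NUF2 at 140 ± 28.6 with WT. MAD2L1, among the lowest in nuclei at 8.09 with K700E and 7.48 with WT, stood at 74.9 in K700E cytoplasm and 68.9 in WT cytoplasm. SPC25, KIF15, PRC1 and NUSAP1 were the lowest 4 in each of the 4 groups, at 0.218 to 3.59 CPM per kilobase.

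The second question is whether K700E changed these levels. In nuclei, 0 of the 48 passed (0.0% of all genes did), with the smallest adjusted p among them at 0.659. At an unadjusted p under 0.05 there were 6 of 48 and 1389 of 20394, and neither DESeq2 nor limma voom called any of the 48. The groups did not overlap for 4 of 48 (KIF15, KIF18A and NUSAP1 higher and KIF2C lower with K700E), or 8.33% beside 8.79% of all genes. The 5 smallest p-values were those of KIF15 (1.39 ± 0.52), KIF18A (0.66 ± 0.27), CDC20 (-0.72 ± 0.29), ESPL1 (-0.63 ± 0.26) and ECT2 (0.65 ± 0.29), all with an adjusted p of 0.659 in edgeR. Intervals stayed wide: for CENPE the K700E-to-WT log2 difference in nuclei lay between -0.17 and 0.81, for PLK1 between -1.26 and -0.04, and for MAD2L1 between -0.56 and 0.78.

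These nuclear differences followed GC content. Across the 48 genes, rho between the K700E-to-WT log2 difference and GC content was -0.72, beside -0.69 across protein-coding genes, so that GC-rich CDC20, ESPL1 and PLK1 were at the low end and AT-rich ECT2, KIF18A and NUF2 at the high end, and the coding windows above show this composition for CDC20, ESPL1, ECT2 and KIF18A. Without nuclear library 2 of both constructs rho was -0.28. KIF18A was then at 0.16, ECT2 at 0.09 and NUF2 at 0.03, and CDC20 at -0.32, ESPL1 at -0.30 and PLK1 at -0.19. KIF15 went the other way, to 2.24 (adjusted p = 1.0), and SPC25 to 1.75. With the GC trend of each library removed, rho was -0.26. Genomic span had a rho of 0.55 with the nuclear difference in all libraries, beside 0.35 across protein-coding genes.

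**Figure D5:**
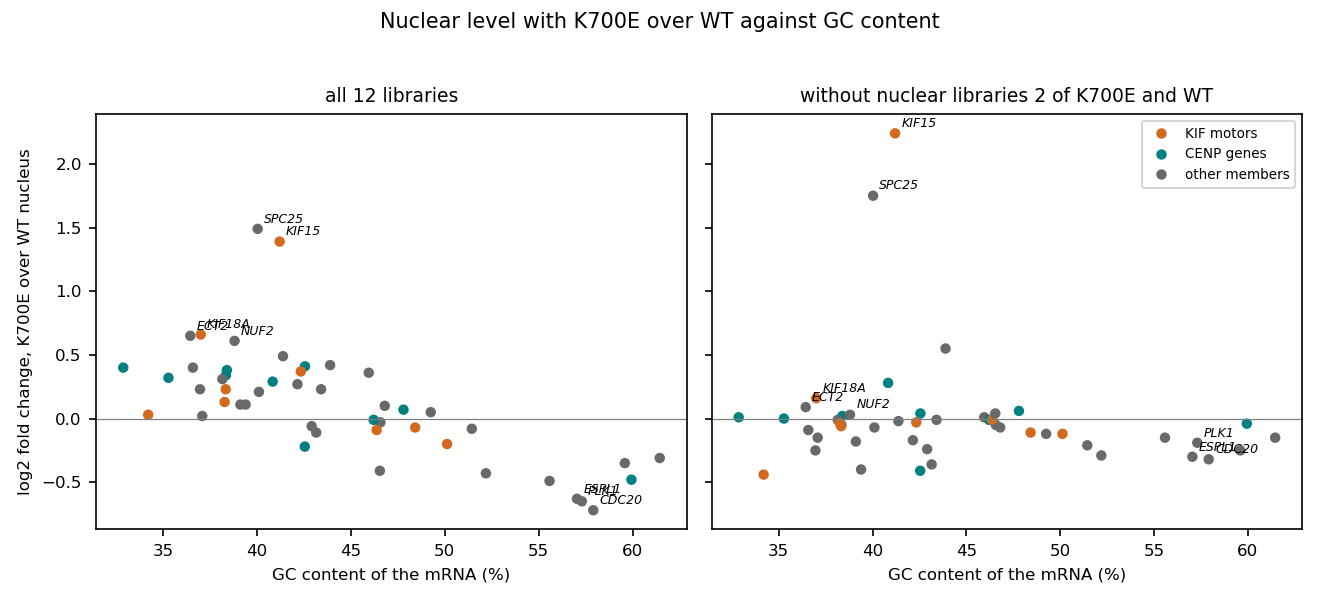
Log2 fold change of K700E over WT in nuclei (vertical axis) against the GC content of the mRNA in percent for the 48 genes, with all 12 libraries (left) and without nuclear library 2 of K700E and WT (right). On the left the points descend with GC content (rho -0.72), and on the right most lie within 0.5 of 0 while KIF15 and SPC25 stand at 2.24 and 1.75.

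In the cytoplasm, 0 of the 48 passed, beside 1 of all genes (0.0049%), an ID without a symbol. At an unadjusted p under 0.05 there were 1 of 48 and 929 of 20394, and DESeq2 and limma voom again called 0 of the 48. The groups did not overlap for 7 of 48, all lower with K700E (CCNB1, AURKA, BIRC5, CDCA8, CENPN, CENPW and KIF20A), or 14.6% beside 13.6% of all genes. The smallest p-values were those of KIF15 (-1.12 ± 0.51), CDCA8 (-0.33 ± 0.18), CCNB1 (-0.39 ± 0.21), CENPW (-0.34 ± 0.20) and CENPF (0.35 ± 0.25), all with an adjusted p of 1.0. BIRC5 averaged 537 ± 55.4 CPM in K700E cytoplasm and 633 ± 28 in WT cytoplasm (SD, n = 3), a log2 difference of -0.24 ± 0.22 with a 95% interval of -0.69 to 0.22. Across the 48, rho between this difference and GC content was -0.51, beside -0.08 for protein-coding genes. With the GC trend of each library removed it was -0.38 across the 48. Both comparisons of the constructs use the same WT and K700E libraries as the fraction ratios, so they are not independent of them.

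The third question is whether K700E changed the cytoplasm-to-nucleus ratio, tested as the interaction of construct and fraction. Of the 48 genes, 0 passed (0.0% of all genes), with 2 of 48 and 672 of 20394 at an unadjusted p under 0.05 and 0 of the 48 called by DESeq2 or limma voom. The median of the 48 was -0.17, beside 0.03 for protein-coding genes, and 16 of 48 were above 0. KIF15 was farthest from 0, with a log2 change of -2.51 ± 0.73 (adjusted p = 0.98), where K700E values were all above WT in nuclei and overlapped WT in the cytoplasm. With no filter on low counts its adjusted p in edgeR was 0.0106 (-2.59), the one setting among those tried that called any of the 48. KIF18A followed (-0.82 ± 0.37), then ECT2 (-0.71 ± 0.41), KIF23 (-0.55 ± 0.34) and CCNB2 (-0.55 ± 0.34), with adjusted p of 0.98 each. Without nuclear library 2 of both constructs these changes were -0.32 for KIF18A, -0.14 for ECT2, -0.14 for KIF23 and -0.20 for CCNB2, while KIF15 was at -3.36 (adjusted p of 1.0 each). For the genes with the most uneven distribution the difference between constructs was small and its interval included 0, from -0.93 to 0.95 for MAD2L1, from -0.46 to 0.84 for BIRC5, from -0.87 to 0.52 for CENPE and from -0.91 to 0.58 for ASPM. The long motor and CENP genes had a median change of -0.19 and the short ones of -0.22, beside -0.06 and 0.14 for protein-coding genes with long and short mRNAs.

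A wider list of 119 mitotic genes that are not among the 48, of which 117 were tested, gives the pathway around them. With K700E 49 were higher in the cytoplasm and 26 lower, and with WT 55 were higher and 27 lower, with medians of 0.34 and 0.56. These are 41.9% higher and 22.2% lower with K700E and 47.0% and 23.1% with WT, beside the 36.5% higher and 27.4% lower of protein-coding genes with K700E and the 35.4% and 29.5% with WT. Genes of mitotic entry and its transcription (10 higher and 2 lower of 16 with K700E, 11 and 3 with WT), the anaphase-promoting complex (9 and 6 of 18, 10 and 4), condensin (5 and 1 of 8, 6 and 2) and cohesin (6 and 2 of 16, 7 and 1) had more higher than lower. Other kinetochore and checkpoint genes had 11 higher and 4 lower of 25 tested with K700E and 12 and 4 with WT, and other spindle genes 7 and 3 of 21 and 6 and 5. Centriole genes were the reverse, with 1 higher and 6 lower of 8 with either construct, and the cytokinesis and chromosome-surface genes had 0 and 2 of 5 with K700E and 2 and 2 with WT. In all 3 comparisons between the constructs 0 of the 117 passed.

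The extremes of the wider list were genes of the same machines. UBE2S, the ubiquitin-conjugating enzyme that elongates chains for the anaphase-promoting complex, was higher in the cytoplasm at 3.46 ± 0.42 with K700E and 2.79 ± 0.41 with WT. CKS1B, a small CDK-binding protein, was higher at 2.95 ± 0.24 and 2.82 ± 0.24, ENSA, an inhibitor of the phosphatase PP2A, at 3.04 ± 0.29 with WT, and HAUS2, an augmin subunit, at 2.74 ± 0.23 with K700E. HAUS7, another augmin subunit, was lower at -4.04 ± 0.54 and -4.23 ± 0.54, KNTC1 (ROD), of the corona complex that loads dynein, at -2.67 ± 0.23 and -2.55 ± 0.23, ANAPC4 at -2.59 ± 0.24 with K700E and CENPT, the partner of CENPW, at -3.14 ± 0.31 with WT. CENPT had 21.5, 20.5 and 33.7 CPM in WT cytoplasm against 177, 323 and 168 in WT nuclei, the opposite of CENPW, and the 95% intervals of these partners did not overlap. By coding length, 24 of 29 wider genes with a coding sequence under 1000 bases were higher with K700E and 23 with WT, while 11 of 30 over 3000 bases were lower with K700E and 10 with WT. Among all protein-coding genes, 57.1% of those under 1000 coding bases were higher with K700E and 55.2% with WT, and 46.5% of those over 3000 were lower with K700E and 49.6% with WT.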

How the data were processed

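RNA of 12 HEK293T libraries, 3 per construct and fraction, was analysed from gene counts (whole numbers per gene ID) that the authors deposited, one table per library. The submitters' processing notes name HISAT2 and DESeq; the counting program, genome build and annotation were not given in the sources used here. Groups came from the labels. Symbols, mRNA lengths and GC content came from GENCODE 29 (GRCh38), which matched 58440 of 67049 IDs, holding 99.7% of counts; promoters came from RefSeq. Counts were tested with edgeR 4.0.16 (R 4.3.3) in 1 quasi-likelihood fit of all 12 libraries, after filterByExpr (minimum count 10, minimum total 15), with TMM scaling and Benjamini-Hochberg adjustment over 20394 genes at 0.05; the common biological coefficient of variation was 0.306. The script was tested on simulated counts. CPM are TMM-scaled, and log2 intervals are 95%.

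The 48 genes and all lists were chosen with earlier results of these data known. Values in every library were given for the 6 members with the largest called change each way with WT, the 5 smallest p-values of each comparison of the constructs, the shortest and longest motor or CENP mRNA, and textbook members (CDK1, CCNB1, PLK1, AURKA, CENPA, CENPE, CENPF, KIF11, TOP2A, MAD2L1). Of the wider list, the 3 largest called changes each way per construct were named. Alternatives were other scalings, filters and length classes, DESeq2 1.42.0, limma voom 3.58.1, a replicate block, GC correction and leaving out each library. Leaving out both nuclear libraries 2 was chosen after seeing the data. Whether the libraries are stranded is not given, so overlapping genes may share reads.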

Additional observations from a re-analysis of the deposited data

How the results depend on the processing

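Depth and 3 libraries per group limit small differences between the constructs, and genes with few reads (SPC25, NUSAP1, PRC1, KIF15) have the widest intervals. The labels do not say whether a shared replicate number marks a pair. Between the fractions of 1 construct, deviations of same-numbered libraries correlated at -0.167 to 0.0935. Between the constructs within a fraction, same-numbered libraries correlated at 0.0269 to 0.427, against -0.326 to 0.173 for differently numbered ones. With the replicate block, 17 of the 48 genes were higher and 13 lower with K700E (KIF18A was no longer called, adjusted p = 0.0558 in edgeR, and CENPA was, adjusted p = 0.0324), and 21 and 12 with WT.

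Leaving out 1 library at a time gave 15 to 19 higher and 12 to 14 lower with K700E, and 19 to 24 and 11 to 14 with WT. The median of long minus short genes was then -1.67 to -1.0 with K700E (-1.39 with all libraries) and -1.40 to -1.11 with WT (-1.29). By coding length it was -1.84 and -1.55. Removing the GC trend gave 31 higher with K700E and 33 with WT, 13 short genes higher with K700E and a long minus short median of -0.94 with K700E. It also reversed CENPK (1.03 with K700E, 0.82 with WT), KIF20B (0.35 and 0.06), KNL1 (0.57), KIF18A (0.30) and TOP2A (0.51) with K700E, and scaling by library size alone reversed BUB1 with WT (-0.46). Causes were not tested.

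Of all genes, a minimum of 1 CPM in all libraries left 3938 lower in the cytoplasm with K700E and 4074 with WT, since fewer genes were tested. Between K700E and WT nuclei, no filter gave 10 higher and 26 lower, DESeq2 gave 1 lower, and leaving out 1 library 0 to 1 lower. In the cytoplasm, DESeq2 gave 11 higher and 2 lower and no filter 50 and 35. The replicate block, limma voom, the 6 libraries alone and leaving out both nuclear libraries 2 gave 0 higher, and leaving out 1 library 0 to 2. For the change of the ratio, DESeq2 gave 2 higher and 1 lower, no filter 24 and 7 (of the 48, 1 lower, KIF15), and leaving out 1 library 0 to 1 higher.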
